A study of Mus musculus with 19 samples.

Results

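The genes described here encode the enzymes of polyamine, nucleotide and one-carbon synthesis, the anabolic branches that supply spermidine, purines, pyrimidines and folate-bound carbon units. They were chosen by name, with no rule on their measured values, although earlier results of these data were known. A listed gene was kept where the array's probe set annotation gave it a probe set with 1 symbol, and the brightest such probe set stood for the gene. Of 36 listed genes, 30 were measured in this way, among 19752 genes in all. Sms, Oaz1, Ahcy, Amd1, Impdh2 and Mat2a were not analysed here.

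The samples were 19 preparations of natural killer (NK) cells from the spleens of male C57BL/6 mice aged 6 weeks, enriched by EasySep negative selection, with NK1.1 as the stated phenotype marker. Every inhibitor-treated sample also received IL-2 at 250 U/ml, and the labels give 8 h of culture. The JAK1 inhibitor was used at 0.0625 µM (1 sample), 0.25 µM (2), 1 µM (2) and 4 µM (1), and the JAK3 inhibitor at 0.25, 1 and 4 µM (2 samples each). IL-2 alone was given to 4 samples, and 3 samples were untreated, 1 of which carries no culture time in its title. The inhibitors are known here by code names only. The sources used here leave unsaid if replicates are different mice or different cultures; the p-values cover only how these samples vary, and that variation may be technical.

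IL-2 binds a receptor whose signalling chains carry the kinases JAK1 and JAK3, and JAK1 and JAK3 together activate STAT5. In lymphocytes this signal is known to raise growth programmes, including targets of MYC. Ornithine decarboxylase and spermidine synthase build polyamines, and spermidine/spermine acetyltransferase returns them to breakdown or export. De novo purine synthesis builds IMP on ribose phosphate and takes up carbon units that serine passes to folate. Pyrimidine synthesis starts with the multi-enzyme CAD protein, and only its thymidylate step uses such units.

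The deposited array intensities lie on 2 scales. In a high-intensity set of 7 samples the log2 medians were 7.49 to 7.59, and in a low-intensity set of 12 samples they were 5.70 to 5.90. The fit therefore carried a term for the set, and values below are log2 intensities adjusted to the low set's scale. Untreated replicate 2, IL-2 replicates 1 and 2 and replicate 1 of both inhibitors at 0.25 and 1 µM belong to the high set. The NK cell genes Ncr1, Klrb1c and Eomes lay above the sample medians in all samples, with deposited log2 values of at least 7.89, 7.08 and 8.20 in the low set and at least 9.85, 9.22 and 10.90 in the high set. They belong to a list of 12 NK cell markers, whose summed linear intensity in untreated samples was 3164 to 3878. The sums there were 7335 to 8234 for 9 B cell markers and 7161 to 8511 for 13 macrophage and monocyte markers. Sums over different genes do not count cells. RNA from whole preparations was measured, so fewer cells of a type and less RNA per cell cannot be told apart.

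Promoter windows in RefSeq's GRCm38.p6 table, running from 250 bases before to 50 bases after an annotated start, were found for 27 of the 30 genes. They were searched on both strands for the E-box CACGTG, the core motif that MYC and related factors bind, and for TGATGNAA, a core of ATF4-type sites; the motifs do not overlap. The E-box occurred in the windows of 4 of 27 genes (14.8%), against 8.09% of all 27025 genes in the table. These genes were Nme1, Paics, Atic and Tyms. The ATF4-type letters occurred in 1 of 27 genes (3.7%), Prps1, against 4.51% of all genes. A match describes letters in the window and not a bound site. The windows of 3 genes are shown because these genes are followed sample by sample through all groups below. Among the 12 genes given in that way, Nme1 alone had a window with an E-box, printed in capitals, and Srm had no window in the table. The windows lie at chr11:93968223-93968522 (minus strand, Nme1), chr19:15925010-15925309 (minus strand, Psat1) and chr5:76951529-76951828 (minus strand, Ppat).
Nme1: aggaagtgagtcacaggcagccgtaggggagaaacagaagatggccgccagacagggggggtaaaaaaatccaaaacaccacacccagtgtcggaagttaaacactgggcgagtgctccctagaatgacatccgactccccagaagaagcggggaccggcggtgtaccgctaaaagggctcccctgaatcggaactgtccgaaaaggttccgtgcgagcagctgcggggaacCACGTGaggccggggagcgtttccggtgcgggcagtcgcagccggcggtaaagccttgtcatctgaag
Psat1: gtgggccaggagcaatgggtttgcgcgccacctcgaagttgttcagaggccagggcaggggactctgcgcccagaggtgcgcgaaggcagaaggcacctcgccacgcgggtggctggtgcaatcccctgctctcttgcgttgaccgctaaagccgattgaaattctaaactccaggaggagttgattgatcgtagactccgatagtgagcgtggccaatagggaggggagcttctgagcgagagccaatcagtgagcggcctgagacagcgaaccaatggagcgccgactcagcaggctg
Ppat: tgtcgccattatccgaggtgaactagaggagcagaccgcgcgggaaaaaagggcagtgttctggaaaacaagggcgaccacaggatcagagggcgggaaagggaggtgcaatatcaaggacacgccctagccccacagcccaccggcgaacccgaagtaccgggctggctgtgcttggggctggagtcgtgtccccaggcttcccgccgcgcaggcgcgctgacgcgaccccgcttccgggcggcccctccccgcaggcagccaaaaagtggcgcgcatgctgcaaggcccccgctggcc
In the Nme1 window shown, the E-box begins 18 bases before the annotated start. A further annotated start of Nme1 has a window at chr11:93967976-93968275 (minus strand, not shown) with another E-box, 29 bases before that start. Neither motif occurs in the Psat1 and Ppat windows. The start of Ppat lies 276 bases from that of Paics on the opposite strand of chromosome 5, and the values of these neighbours, whose enzymes act at different steps of de novo purine synthesis, are set side by side below.

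The first comparison asked how IL-2 changed these genes in the NK cell preparations. Of the 30 genes, 20 rose, 1 fell and 9 did not pass the test in IL-2-treated cells relative to untreated cells (limma with Benjamini-Hochberg adjustment over all 19752 genes, adjusted p under 0.05). Among all genes, 6.56% rose and 2.59% fell. The median log2 change was 0.73 over the 30 genes and -0.01 over all genes. All 5 folate enzymes and 6 of 7 enzymes from ribose phosphate to IMP rose, as did both measured polyamine synthesis enzymes, and the gene that fell was Sat1 of polyamine breakdown. Every IL-2 sample lay above every untreated sample of its own intensity set in 21 of 30 genes, against 11.2% of all genes. The rise was present in both sets for all 20 risen genes but was larger in the low set for 20 of 20, with a median of 1.28 there (2 IL-2 and 2 untreated samples), against 0.60 in the high set (2 IL-2 samples and 1 untreated sample). IL-2 replicate 1 was the lowest IL-2 sample in 19 of the 20 genes, and untreated replicate 2, the sample without a culture time, was the highest untreated sample in 17 of 20; the part of either in the result was not tested.

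**Figure D1:**
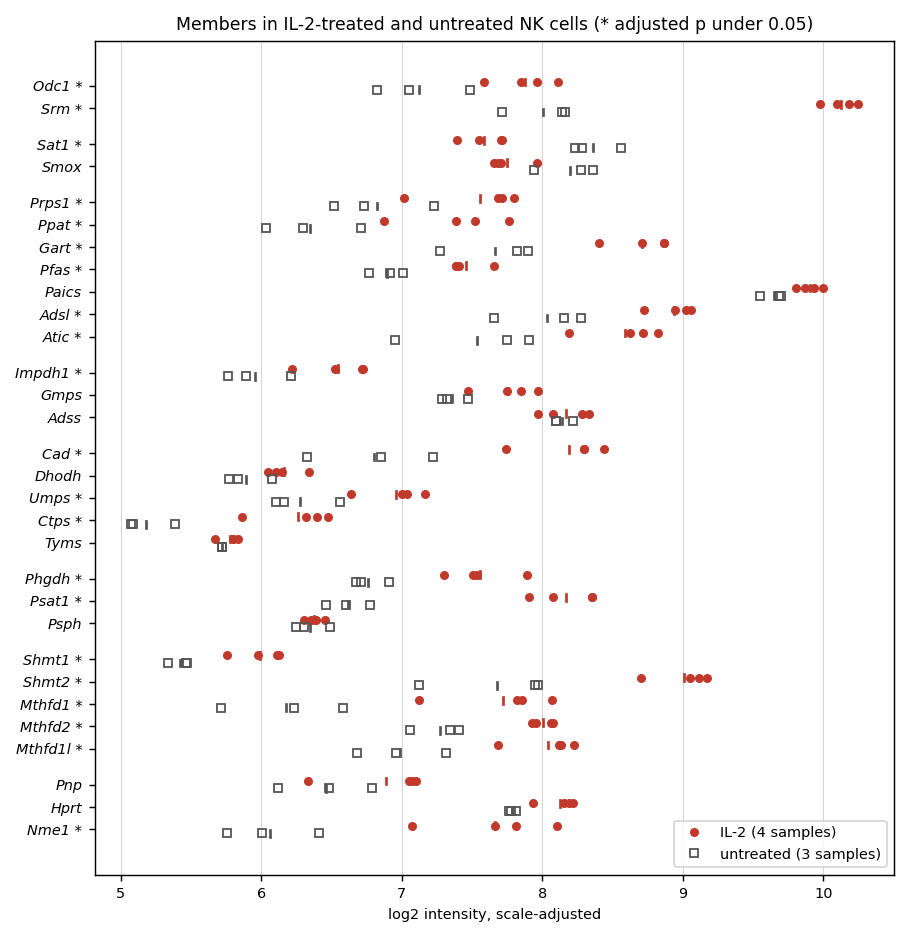
Log2 intensity adjusted for the scale set (horizontal axis) of the 30 genes, ordered by role, in 4 IL-2-treated samples (filled circles) and 3 untreated samples (open squares), with short bars at the group means. An asterisk marks the 21 genes with an adjusted p under 0.05; Srm has the widest gap, and Sat1 is the only marked gene whose IL-2 samples lie to the left.

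Srm, spermidine synthase, had the largest change of the 30 genes. Its log2 values were 9.97, 10.25, 10.18 and 10.09 in IL-2 samples 1 to 4, against 8.14, 7.71 and 8.16 in untreated samples 2 to 4. The groups were separated by more than the spread within either. This is a log2 difference of 2.12 ± 0.17 (SE, n = 4 and 3), a 4.34-fold rise (limma adjusted p = 3.58e-08). Odc1, the ornithine decarboxylase that opens the polyamine pathway, rose by 0.76 ± 0.17 (limma adjusted p = 0.00527), and its other probe set gave 1.00 ± 0.27.

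Sat1, the acetyltransferase that starts polyamine breakdown, moved the other way. It measured 7.39, 7.54, 7.70 and 7.71 in IL-2 samples 1 to 4, against 8.56, 8.23 and 8.28 in untreated samples 2 to 4. All IL-2 samples lay below all untreated samples. The difference was -0.77 ± 0.15 (SE; limma adjusted p = 0.00142), and it lost the call, at -0.55, when only the low-intensity set was fitted. Smox, spermine oxidase, differed by -0.44 ± 0.20 and did not pass the test (limma adjusted p = 0.226).

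In de novo purine synthesis, Prps1, Ppat, Gart, Pfas, Adsl and Atic rose by 0.56 to 1.05. Ppat, the amidotransferase of the first committed step, measured 6.87, 7.52, 7.38 and 7.76 in IL-2 samples 1 to 4, against 6.70, 6.03 and 6.30 in untreated samples 2 to 4. Gart, which joins several later steps on one protein, measured 8.40, 8.86, 8.71 and 8.87 with IL-2, against 7.90, 7.27 and 7.82 without. Adsl, adenylosuccinate lyase, measured 8.72, 9.02, 8.94 and 9.06 with IL-2, against 8.28, 7.66 and 8.15 without. In each of these genes the lowest IL-2 sample exceeded the highest untreated sample, narrowly so for Ppat. The changes were 1.04 ± 0.18 for Ppat, 1.05 ± 0.16 for Gart and 0.91 ± 0.18 for Adsl (SE; limma adjusted p = 0.000511, 0.000176 and 0.00152). Adsl and Pfas lost the call in the low set alone, where their differences were 1.09 and 0.69, and Prps1, at an adjusted p of 0.0476, lost it under 7 of 13 alternatives. Paics, whose start lies beside that of Ppat, was measured at 9.81 to 9.999 in IL-2 samples and 9.55 to 9.70 in untreated samples, a difference of 0.26 ± 0.16 that did not pass (limma adjusted p = 0.441); the difference between the changes of Ppat and Paics was not tested.

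Past IMP the picture was mixed. Impdh1, which commits IMP to guanine nucleotides, rose by 0.59 ± 0.15 (limma adjusted p = 0.0152), whereas Gmps, GMP synthetase, at 0.40 ± 0.14, and Adss, adenylosuccinate synthetase, at 0.03 ± 0.14, did not pass. The Impdh1 call was lost under 5 of 13 alternatives. Of the salvage and interconversion genes, Nme1, a nucleoside diphosphate kinase, measured 7.07, 7.81, 7.66 and 8.10 in IL-2 samples 1 to 4, against 6.41, 5.76 and 6.00 in untreated samples 2 to 4. The groups did not overlap, and the difference was 1.60 ± 0.22, a 3.04-fold rise (limma adjusted p = 4.46e-05). Hprt, which salvages guanine and hypoxanthine, differed by 0.34 ± 0.13 and Pnp, purine nucleoside phosphorylase, by 0.43 ± 0.21; neither passed. Pnp has a near-identical neighbouring copy in the mouse, and whether its probes tell the copies apart was not tested.

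Pyrimidine synthesis showed 3 risen genes of 5. Cad, which joins the opening steps, measured 7.74, 8.30, 8.29 and 8.44 in IL-2 samples 1 to 4, against 7.22, 6.32 and 6.85 in untreated samples 2 to 4. Ctps, which makes CTP from UTP, measured 5.86, 6.40, 6.32 and 6.47 with IL-2, against 5.38, 5.08 and 5.07 without. Neither gene overlapped between groups, and the rises were 1.39 ± 0.21 for Cad and 1.08 ± 0.15 for Ctps (SE; limma adjusted p = 0.000133 and 4.18e-05). Umps, which completes UMP, rose by 0.68 ± 0.15. Dhodh, the mitochondrial step, differed by 0.26 ± 0.13 and Tyms, thymidylate synthase, by 0.06 ± 0.13, and both stayed short of the threshold (limma adjusted p = 0.255 and 0.884).

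The serine and folate enzymes held several of the largest rises. Psat1, the aminotransferase of serine synthesis, measured 7.90, 8.35, 8.07 and 8.35 in IL-2 samples 1 to 4, against 6.77, 6.46 and 6.60 in untreated samples 2 to 4. Mthfd1, the multifunctional cytosolic folate enzyme, measured 7.12, 7.85, 7.82 and 8.07 with IL-2, against 6.58, 5.72 and 6.23 without. For both genes, all IL-2 samples exceeded all untreated samples. Psat1 rose by 1.56 ± 0.16 and Mthfd1 by 1.54 ± 0.21 (SE; limma adjusted p = 1.26e-06 and 3.97e-05). Shmt2, the mitochondrial serine hydroxymethyltransferase, measured 8.70, 9.17, 9.05 and 9.11 with IL-2, against 7.95, 7.12 and 7.97 without. Mthfd1l, which releases formate from mitochondria, measured 7.69, 8.12, 8.13 and 8.23 with IL-2, against 7.32, 6.68 and 6.95 without. Again no samples overlapped, with rises of 1.33 ± 0.21 and 1.06 ± 0.17. Phgdh, Mthfd2 and the cytosolic Shmt1 rose by 0.80 ± 0.17, 0.74 ± 0.17 and 0.57 ± 0.13. Phgdh and Mthfd2 lost the call in the low set alone, where their differences were 1.01 and 0.74. Psph, the last step of serine synthesis, differed by 0.03 ± 0.13 and did not pass (limma adjusted p = 0.945).

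Further genes of the same pathways were counted from lists of 62 symbols, of which 55 were measured. With IL-2, 10 rose and 3 fell, with a median log2 change of 0.22. Of all genes, 6.56% rose and 2.59% fell, with a median of -0.01. Dctd, dCMP deaminase, rose by 2.15 ± 0.14, Upp1, uridine phosphorylase, by 1.70 ± 0.17, and Uck2, uridine-cytidine kinase, by 1.14 ± 0.20. Samhd1, which breaks down deoxynucleotides, rose by 0.87 ± 0.14. Sfxn1, a mitochondrial serine carrier, rose by 1.54 ± 0.21 and Slc19a1, the reduced folate carrier, by 1.00 ± 0.13, and Mtrr of methionine synthesis rose by 0.79 ± 0.17. Arg2, the mitochondrial arginase that supplies ornithine, fell by 1.23 on the log2 scale and Ctps2 fell by 0.47. Rrm1, the large subunit of ribonucleotide reductase, differed by 0.58 ± 0.21 and did not pass (limma adjusted p = 0.0965).

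Marker genes of other cells moved with the same comparison. The summed linear intensity of 13 macrophage and monocyte markers was 1976 to 2645 in IL-2 samples and 7161 to 8511 in untreated samples, with 8 genes lower and 1 higher. The sum of 12 NK cell markers was 9565 to 12615 in IL-2 samples, against 3164 to 3878 in untreated samples, with 10 genes higher. Sums of B cell markers were 6032 to 6621 with IL-2, against 7335 to 8234 without (3 of 9 genes lower), those of neutrophil markers 3421 to 3576, against 5258 to 6058 (7 of 12 lower), and those of dendritic cell markers 3343 to 3888, against 4520 to 5206 (2 of 10 lower, 1 higher). T cell marker sums overlapped, at 1230 to 1324 with IL-2 and 962 to 1435 without, and none of 8 genes was called. No value on these arrays is 0. The part of these markers in the changes above was not tested.

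The next question was what the JAK inhibitors did to the genes that IL-2 moved. All of these comparisons share the 4 IL-2 samples. In JAK1 inhibitor-treated cells relative to IL-2 alone, 1, 8, 9 and 13 of the 30 genes were lower at 0.0625, 0.25, 1 and 4 µM, and in JAK3 inhibitor-treated cells 13, 19 and 17 were lower at 0.25, 1 and 4 µM. The JAK1 inhibitor had 1 sample each at 0.0625 and 4 µM, and for these groups the fit takes the spread from the other groups, so their counts have no replicate check. The matching shares of all genes were 0.0152%, 1.52%, 2.31% and 2.63% for the JAK1 inhibitor and 2.26%, 3.69% and 4.5% for the JAK3 inhibitor. The median log2 change of the 30 genes was -0.29, -0.52, -0.52 and -0.83 with the JAK1 inhibitor, and -0.60, -0.67 and -0.79 with the JAK3 inhibitor, where the medians of all genes lay between -0.10 and 0.08. Sat1 was the gene that rose, with the JAK1 inhibitor at 1 µM and the JAK3 inhibitor at 1 and 4 µM, where 2.85%, 2.86% and 3.01% of all genes rose.

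**Figure D2:**
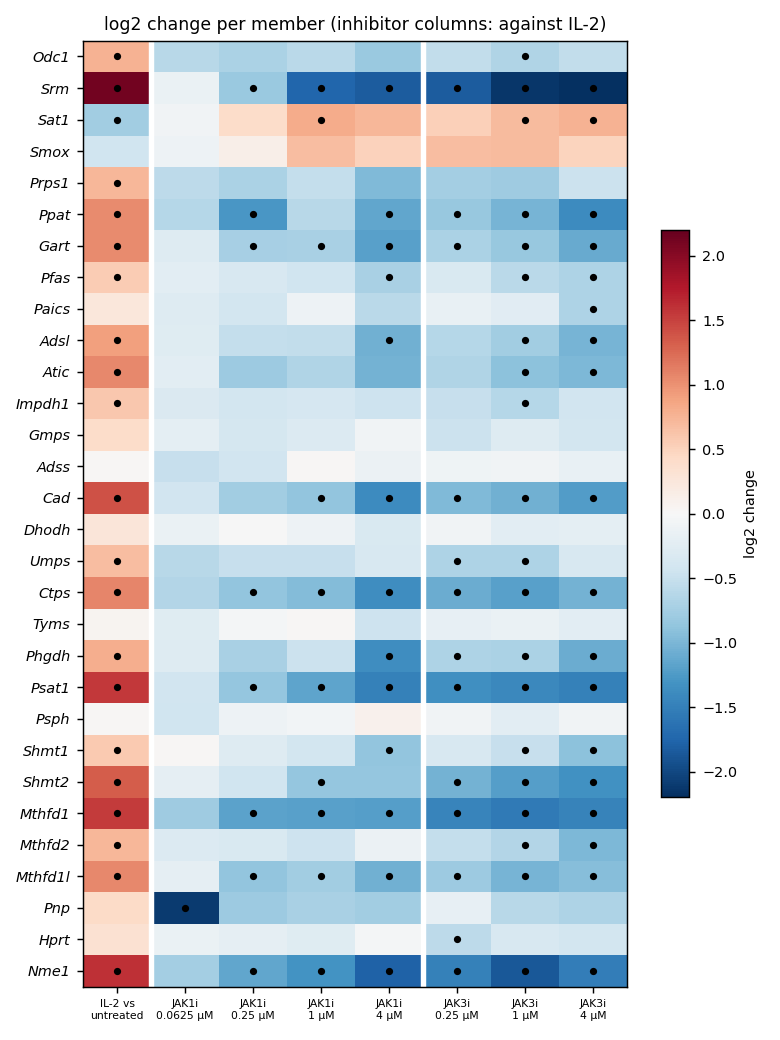
Log2 change (colour, red higher and blue lower) of each of the 30 genes in IL-2-treated relative to untreated cells (left column) and in cells given the JAK1 inhibitor (JAK1i, 4 doses) or the JAK3 inhibitor (JAK3i, 3 doses) relative to IL-2 alone; dots mark an adjusted p under 0.05. Most genes that are red on the left are blue to the right, Sat1 has the opposite signs, and the JAK1 inhibitor at 0.0625 µM has 1 dot, for Pnp.

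Without a test, the samples can also be read against the IL-2 samples of their own intensity set. Every JAK1 inhibitor sample lay below all of these in 29, 23, 21 and 26 of 30 genes at 0.0625, 0.25, 1 and 4 µM, where all genes gave 32.1%, 16.4%, 9.73% and 51.5%. Every JAK3 inhibitor sample did so in 24, 25 and 25 genes at 0.25, 1 and 4 µM, where all genes gave 12.9%, 16% and 24.7%. The single samples at 0.0625 and 4 µM of the JAK1 inhibitor and the pair at 4 µM of the JAK3 inhibitor lie in 1 set, so that fewer samples had to be passed there.

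Of the polyamine synthesis genes, Srm passed the test at 6 of the 7 inhibitor doses and Odc1 at 1. Srm measured 9.97 at 0.0625 µM, 9.28 and 9.34 at 0.25 µM, 8.40 and 8.35 at 1 µM and 8.29 at 4 µM of the JAK1 inhibitor. With the JAK3 inhibitor it measured 8.31 and 8.29 at 0.25 µM, 7.88 and 8.10 at 1 µM and 7.44 and 8.26 at 4 µM. The JAK3 inhibitor at its lowest dose thus gave Srm values that the JAK1 inhibitor gave only from 1 µM on. Relative to IL-2 alone, the changes were -0.15 ± 0.25, -0.81 ± 0.19, -1.75 ± 0.19 and -1.83 ± 0.25 with rising JAK1 inhibitor dose, and all but the lowest dose passed. With the JAK3 inhibitor they were -1.82 ± 0.19, -2.14 ± 0.19 and -2.28 ± 0.20, all past the threshold (limma adjusted p = 2.83e-06, 2.68e-07 and 2.27e-07). Odc1 passed at 1 µM of the JAK3 inhibitor alone, at -0.66 ± 0.19 (limma adjusted p = 0.0402), a call lost under 8 of 13 alternatives. Its other probe set gave -0.98 there without passing (limma adjusted p = 0.0617). Odc1 was changed by a like amount at the other doses. The changes were -0.60, -0.70, -0.59 and -0.82 at the rising JAK1 inhibitor doses, and -0.54 at both 0.25 and 4 µM of the JAK3 inhibitor.

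Sat1 ran in the opposite direction. It measured 7.504 at 0.0625 µM, 7.85 and 8.15 at 0.25 µM, 8.45 and 8.36 at 1 µM and 8.32 at 4 µM of the JAK1 inhibitor. With the JAK3 inhibitor it measured 8.34 and 7.88 at 0.25 µM, 8.19 and 8.37 at 1 µM and 8.38 and 8.34 at 4 µM. From 0.25 µM on, every sample of either inhibitor lay above every IL-2 sample. The rise relative to IL-2 alone was 0.82 ± 0.17 at 1 µM of the JAK1 inhibitor, and 0.69 ± 0.17 and 0.77 ± 0.17 at 1 and 4 µM of the JAK3 inhibitor (limma adjusted p = 0.00413, 0.0125 and 0.00691). The single sample at 4 µM of the JAK1 inhibitor gave 0.74 ± 0.22 and did not pass (limma adjusted p = 0.0751).

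In purine synthesis, Gart was lower at every dose but 0.0625 µM with both inhibitors. It measured 8.42, then 7.91 and 8.04, then 8.01 and 7.97, then 7.51 at the 4 rising JAK1 inhibitor doses, and 7.96 and 8.06, 7.89 and 7.86, and 7.41 and 7.78 at the 3 rising JAK3 inhibitor doses. Ppat measured 6.75, then 6.07 and 6.13, then 6.79 and 6.75, then 6.23 with the JAK1 inhibitor, and 6.61 and 6.48, 6.33 and 6.40, and 5.92 and 6.08 with the JAK3 inhibitor. The Ppat values at 1 µM of the JAK1 inhibitor were therefore higher than those at 0.25 µM, and Ppat passed the test at 0.25 and 4 µM of that inhibitor but not at 1 µM (-1.28, -1.15 and -0.61; limma adjusted p = 0.00138, 0.016 and 0.101). Adsl measured 8.68, then 8.45 and 8.38, then 8.35 and 8.44, then 7.88 with the JAK1 inhibitor, and 8.23 and 8.39, 8.15 and 8.21, and 7.54 and 8.31 with the JAK3 inhibitor. It was lower than with IL-2 alone at 4 µM of the JAK1 inhibitor and at 1 and 4 µM of the JAK3 inhibitor (-1.05, -0.76 and -1.01). At 4 µM of the JAK3 inhibitor 6 of the 7 genes of this branch were lower, including Paics at -0.68 ± 0.19 (limma adjusted p = 0.0303), which IL-2 had not moved past the threshold. That Paics call was lost under 7 of 12 alternatives. So was each of the Gart calls at 0.25 and 1 µM of the JAK1 inhibitor and at 0.25 µM of the JAK3 inhibitor.

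Nme1 measured 6.91 at 0.0625 µM, 6.59 and 6.45 at 0.25 µM, 6.55 and 6.14 at 1 µM and 5.88 at 4 µM of the JAK1 inhibitor. With the JAK3 inhibitor it measured 6.16 and 6.19, 5.61 and 5.97, and 5.76 and 6.52 at the 3 rising doses. All 12 inhibitor values lay below the lowest IL-2 value of 7.07. The changes were -1.14 to -1.78 at the 3 higher JAK1 inhibitor doses and -1.49 to -1.87 over the JAK3 inhibitor doses, all past the threshold. Hprt was lower at 0.25 µM of the JAK3 inhibitor alone (-0.58 ± 0.15; limma adjusted p = 0.0251). Pnp was the 1 gene lower at 0.0625 µM of the JAK1 inhibitor, with a value of 4.79 in that single sample against 6.33, 7.05, 7.10 and 7.07 in IL-2 samples 1 to 4 (-2.10 ± 0.32; limma adjusted p = 0.0154). That group has no spread of its own, so the error comes from the other groups. No other sample of the study had Pnp under 5.82, and the call was lost without IL-2 replicate 3 (adjusted p = 0.0791) and with the replicate number as a block (adjusted p = 0.832). Impdh1 was lower at 1 µM of the JAK3 inhibitor alone, and Gmps and Adss passed in no inhibitor comparison.

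Among the pyrimidine genes, Cad measured 7.76, then 7.33 and 7.53, then 7.35 and 7.31, then 6.81 at the rising JAK1 inhibitor doses, and 7.25 and 7.19, 7.10 and 7.15, and 6.55 and 7.37 at the rising JAK3 inhibitor doses. Ctps measured 5.62, then 5.38 and 5.40, then 5.20 and 5.43, then 4.89 with the JAK1 inhibitor, and 5.22 and 5.12, 5.21 and 4.93, and 5.05 and 5.38 with the JAK3 inhibitor. Every Ctps value with an inhibitor lay below every IL-2 value. Ctps was lower at all doses of either inhibitor but 0.0625 µM, by -0.87 to -1.37 with the JAK1 inhibitor and -1.05 to -1.19 with the JAK3 inhibitor. Cad was lower at 1 and 4 µM of the JAK1 inhibitor (-0.87 and -1.38) and at 0.25, 1 and 4 µM of the JAK3 inhibitor (-0.97, -1.06 and -1.23). Umps was lower at 0.25 and 1 µM of the JAK3 inhibitor, while Dhodh and Tyms passed in no inhibitor comparison.

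For serine synthesis, Psat1 measured 7.75, then 7.33 and 7.29, then 7.07 and 6.97, then 6.69 at the rising JAK1 inhibitor doses, and 6.74 and 6.89, 6.69 and 6.83, and 6.35 and 7.01 at the rising JAK3 inhibitor doses. All of these lay below the lowest IL-2 value of 7.90. Psat1 was lower by -0.86, -1.15 and -1.48 at 0.25, 1 and 4 µM of the JAK1 inhibitor and by -1.36, -1.41 and -1.49 at the same JAK3 inhibitor doses. Phgdh, which opens the branch, was lower at 4 µM of the JAK1 inhibitor (-1.36 ± 0.25) and at every JAK3 inhibitor dose (-0.68, -0.70 and -1.09). Psph passed in none.

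Among the folate enzymes, Mthfd1 measured 6.94, then 6.56 and 6.52, then 6.58 and 6.48, then 6.499 at the rising JAK1 inhibitor doses, and 6.26 and 6.29, 6.15 and 6.17, and 5.94 and 6.54 at the rising JAK3 inhibitor doses. Shmt2 measured 8.82, then 8.43 and 8.70, then 8.17 and 8.14, then 8.16 with the JAK1 inhibitor, and 8.05 and 7.88, 7.71 and 7.88, and 7.26 and 8.11 with the JAK3 inhibitor. Mthfd1l measured 7.84, then 7.13 and 7.23, then 7.33 and 7.22, then 6.98 with the JAK1 inhibitor, and 7.22 and 7.25, 6.98 and 7.07, and 6.81 and 7.41 with the JAK3 inhibitor. Mthfd1 and Mthfd1l were lower than with IL-2 alone at every dose of either inhibitor from 0.25 µM. Shmt2 was lower at each JAK3 inhibitor dose (-1.05, -1.21 and -1.32). With the JAK1 inhibitor it passed at 1 µM (-0.85 ± 0.24, limma adjusted p = 0.0386) and not at 0.25 µM. The call at 1 µM was lost under 7 of 12 alternatives. The single Shmt2 sample at 4 µM of the JAK1 inhibitor, a group without a spread of its own, lay at 8.16, beside 8.17 and 8.14 at 1 µM. Mthfd2 was lower at 1 and 4 µM of the JAK3 inhibitor (-0.64 and -0.98) and passed at no JAK1 inhibitor dose. Shmt1 was lower at 1 and 4 µM of the JAK3 inhibitor (-0.51 and -0.90) and at 4 µM of the JAK1 inhibitor (-0.86).

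**Figure D3:**
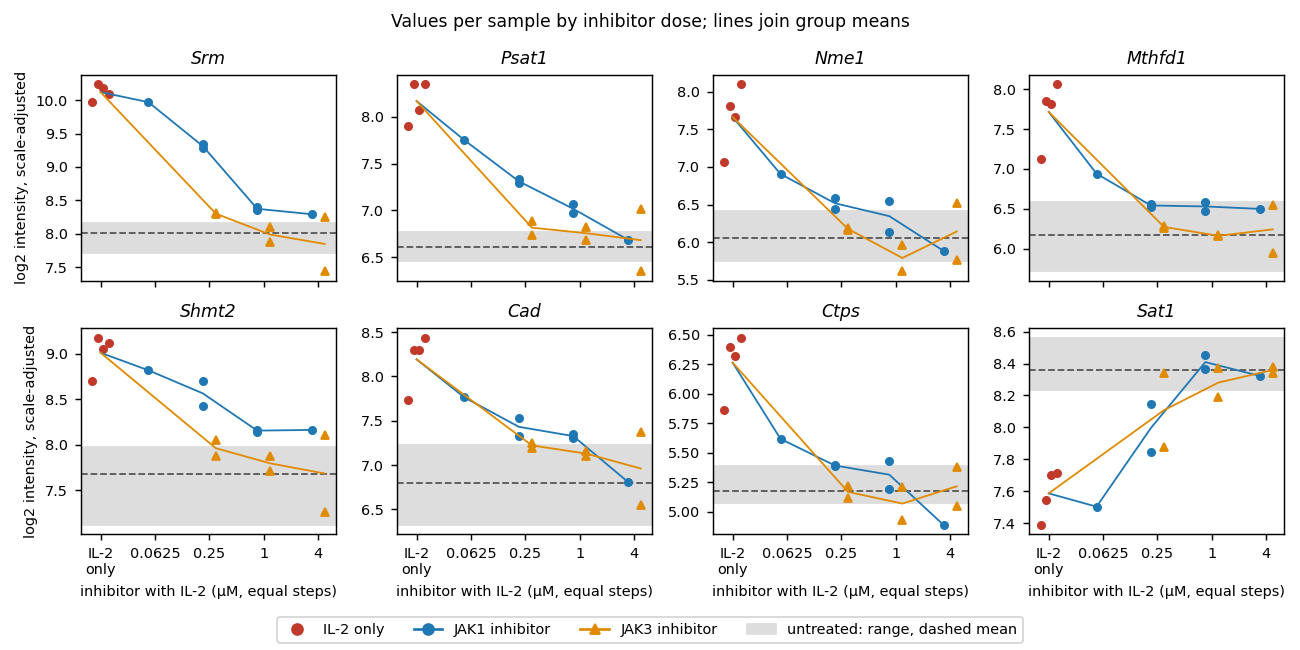
Log2 intensity adjusted for the scale set (vertical axis) of 8 genes against inhibitor dose in equal steps (horizontal axis), with IL-2 alone at the left, points for samples and lines through group means; the grey band is the range of the 3 untreated samples and the dashed line their mean. Srm stays near its IL-2 level at 0.0625 µM of the JAK1 inhibitor (9.97). Sat1 lies above its IL-2 level at all other doses of either inhibitor, and its slope over dose passed the threshold for neither.

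The counts depend on single libraries. Those among all 19752 genes moved too. At 0.25 µM of the JAK3 inhibitor 987 were called, against 670, 689 and 760 without IL-2 replicates 3, 4 and 2. At 1 µM it was 1293, against 938, 904 and 1048 without IL-2 replicates 4, 3 and 2. At 0.25 µM of the JAK1 inhibitor it was 445, against 236, 215, 211 and 723 without IL-2 replicates 2, 4, 3 and 1. At 1 µM it was 1019, against 837, 681, 734 and 997 without IL-2 replicates 2, 3, 4 and 1. The counts below are of the 30 genes. For the JAK3 inhibitor, 13 genes were called at 0.25 µM, against 5 without either of its samples and 7, 7 and 8 without IL-2 replicate 3, 4 or 2; 20 were called at 1 µM, against 5 and 7 without its replicates 1 and 2, and 11, 13 and 13 without IL-2 replicates 4, 3 and 2. At 4 µM, 18 were called, against 12 without its replicate 1, the sample that lay below replicate 2 in 25 of 30 genes (median difference -0.47). For the JAK1 inhibitor, 8 genes were called at 0.25 µM, against 0 without either of its samples, 3 with IL-2 replicate 2 or 4 left out, 5 when IL-2 replicate 3 was dropped, and 15 when IL-2 replicate 1 was. At 1 µM, 10 were called, against 5 and 3 without its replicates 1 and 2, 6 without IL-2 replicate 2, 3 or 4 and 15 without IL-2 replicate 1. At 4 µM, 13 were called, against 7 without IL-2 replicate 4.

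The level of the 20 risen genes can be placed between untreated cells, set to 0%, and IL-2 alone, set to 100%. The median was 62.1% at 0.0625 µM, 29.2% at 0.25 µM, 27.9% at 1 µM and -4.35% at 4 µM of the JAK1 inhibitor. It was 20.4%, 6.26% and 3.84% at 0.25, 1 and 4 µM of the JAK3 inhibitor. Single genes spread widely, between -23.3% and 66.5% at 0.25 µM of the JAK1 inhibitor and between -2.24% and 41.5% at 0.25 µM of the JAK3 inhibitor. Srm kept 92.9%, 61.8%, 17.4% and 13.6% of its rise at the rising JAK1 inhibitor doses and 13.9%, -0.871% and -7.497% at the JAK3 inhibitor doses. These shares are descriptions, since the genes were taken for their rise in the same IL-2 and untreated samples. Dose is also partly mixed with the intensity set. All samples at 0.0625 and 4 µM lie in the low-intensity set, where the IL-2 rise was larger, and those at 0.25 and 1 µM lie in both sets. The part of the set in these dose courses was not tested.

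**Figure D4:**
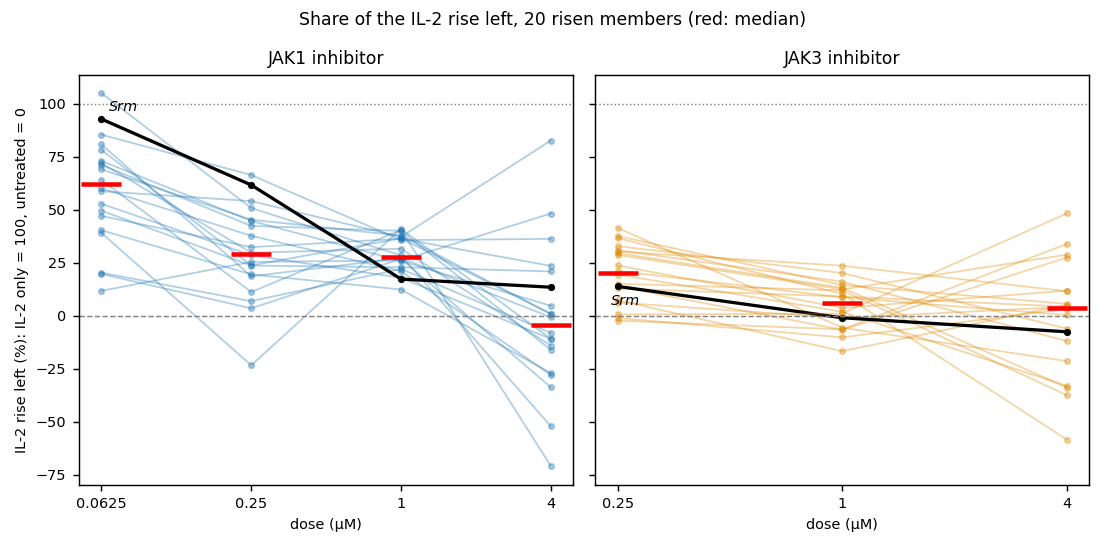
Share of the IL-2 rise left (vertical axis, percent; untreated cells 0, IL-2 alone 100) for the 20 genes that rose, by dose of the JAK1 inhibitor (left) and the JAK3 inhibitor (right), 1 line per gene, Srm in black and medians in red. The JAK1 inhibitor medians run from 62.1% at 0.0625 µM to -4.35% at 4 µM, and the JAK3 inhibitor medians lie between 20.4% and 3.84%.

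The marker sums moved along with the doses, and not all at the same dose. At 0.25 µM of the JAK1 inhibitor the NK cell sum was 8028 to 9296 and none of its 12 genes was called against IL-2 alone, while 8 of the 30 genes described here were lower. At 0.25 µM of the JAK3 inhibitor the NK cell sum was 3893 to 4015, with 10 of 12 genes lower. The macrophage and monocyte sum was 3162 at 0.0625 µM and 4200 to 4525 at 0.25 µM of the JAK1 inhibitor, and 6757 to 8758 in all other inhibitor samples. Of its 13 genes, 0, 6, 8 and 8 were higher than with IL-2 alone at the rising JAK1 inhibitor doses and 8 at each JAK3 inhibitor dose, with 1 lower at 4 µM of either inhibitor. Of 12 neutrophil markers, 0, 1, 6 and 5 were higher at the JAK1 inhibitor doses and 5, 6 and 4 at the JAK3 inhibitor doses, with sums of 3589 to 6027 and 3626 to 6259. Of 10 dendritic cell markers, 0, 1, 3 and 2 were higher at the JAK1 inhibitor doses and 3, 3 and 2 at the JAK3 inhibitor doses, with 1 lower at 4 µM of the JAK3 inhibitor and sums of 3742 to 5504 and 4624 to 5508. Of 9 B cell markers, 0, 0, 2 and 1 were higher at the JAK1 inhibitor doses and 4, 1 and 3 at the JAK3 inhibitor doses, with sums of 6502 to 8018 and 6945 to 8465. None of 8 T cell markers was called at any dose. The part of these markers in the inhibitor results was not tested.

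Of the 55 listed further pathway genes, 5 and 5 were lower and 0 and 3 higher at 0.25 and 1 µM of the JAK1 inhibitor. Its doses of 0.0625 and 4 µM had 1 sample each and are not counted here. At the rising JAK3 inhibitor doses 5, 8 and 7 were lower and 3, 3 and 4 higher. Of all genes, 1.52% and 2.31% were lower at 0.25 and 1 µM of the JAK1 inhibitor and 2.26% to 4.5% at the JAK3 inhibitor doses. Higher calls among all 19752 genes numbered 144 at 0.25 µM and 562 (2.85%) at 1 µM of the JAK1 inhibitor. At the rising JAK3 inhibitor doses they numbered 541, 565 (2.86%) and 594 (3.01%). Dctd was lower by -0.74, -1.98 and -1.83 at 0.25, 1 and 4 µM of the JAK1 inhibitor and by -1.87, -2.03 and -1.98 at the same JAK3 inhibitor doses. Slc19a1 and Upp1 were lower at the same 6 inhibitor-dose groups, and Arg2 was higher in 5 of them, all but 0.25 µM of the JAK1 inhibitor.

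At matched doses the inhibitors were compared directly, which made 3 comparisons. At 0.25 µM, Srm was higher with the JAK1 inhibitor than with the JAK3 inhibitor by 1.01 ± 0.22 on the log2 scale (95% interval 0.55 to 1.47, n = 2 each; limma adjusted p = 0.0433), where 0.238% of all genes were higher. It was the 1 gene of 30 past the threshold, and the call was lost when any of the 4 samples was left out, with the difference at 0.98 to 1.05. At this dose 5 of 12 NK cell markers were also higher with the JAK1 inhibitor, with marker sums of 8028 to 9296 against 3893 to 4015 with the JAK3 inhibitor, and the macrophage and monocyte sums were 4200 to 4525 against 6757 to 7905; the part of either in the Srm difference was not tested. Other genes at this dose with an unadjusted p under 0.05 were Shmt2 (0.60, 95% interval 0.03 to 1.17), Psat1 (0.50, 0.06 to 0.93), Hprt (0.38, 0.02 to 0.74), Smox (-0.55, -1.10 to -0.01) and Pnp (-0.61, -1.19 to -0.03), none of which passed after adjustment. With Srm included, 6 of the 30 genes had such a p, against 6.59% of all genes.

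At 1 µM, 0 of 30 genes and 0% of all genes passed (limma), and 0 of the 30 genes had an unadjusted p under 0.05, against 0.85% of all genes. The JAK1 inhibitor gave the higher mean in 27 of 30 genes, with a median difference of 0.18, where the median of all genes was 0.06, and the 95% intervals of the 30 genes ran from -0.67 to 1.16 at their outermost. At 4 µM the JAK1 inhibitor was represented by 1 sample, which has no spread of its own. The largest difference was 0.86, for Mthfd2, and it was not called. The outermost bounds of the 95% intervals at this dose were -1.24 and 1.41. These intervals leave room for differences as large as many of the IL-2 effects.

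**Figure D5:**
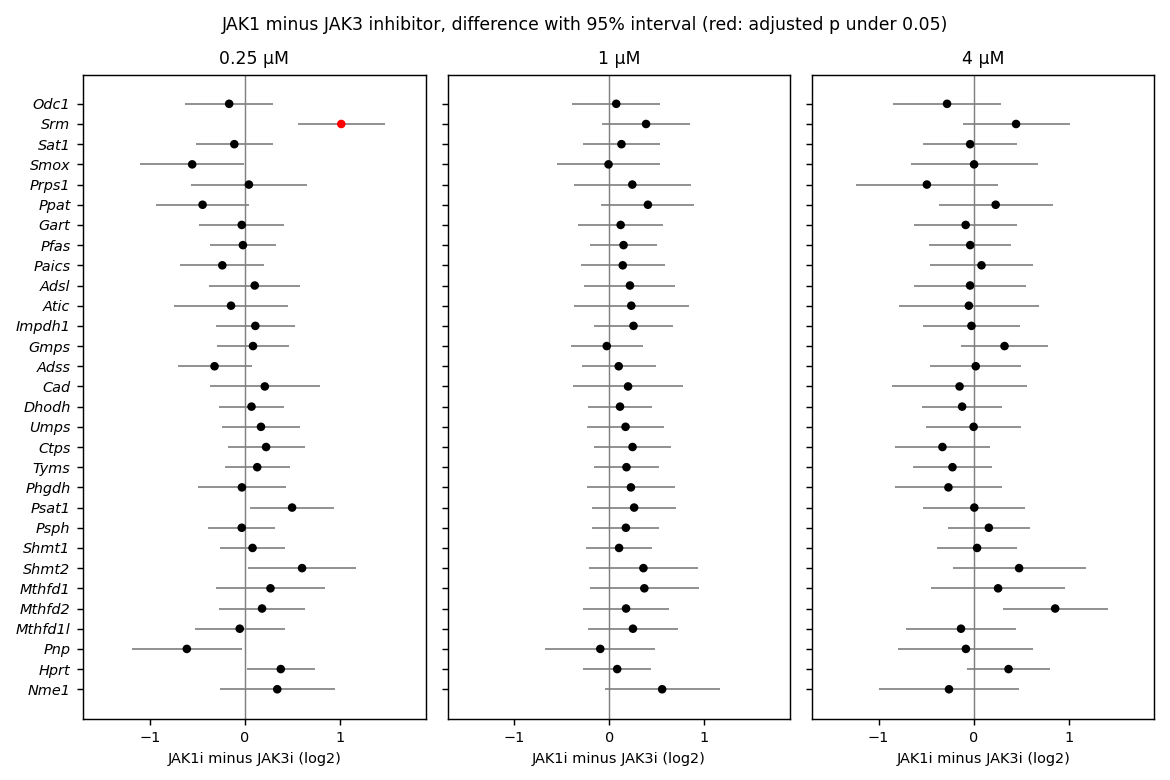
Difference in log2 intensity between the JAK1 inhibitor (JAK1i) and the JAK3 inhibitor (JAK3i) at 0.25, 1 and 4 µM (panels) for the 30 genes, with 95% intervals. Srm at 0.25 µM (1.01, red) is the 1 difference past the threshold; at 1 µM most points lie to the right of 0.

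Cells given 4 µM inhibitor with IL-2 were also set against untreated cells. With the JAK1 inhibitor, which had 1 sample and no spread of its own, differences ran from -0.56 (Phgdh) to 0.61 (Mthfd2). Their median was -0.05, where the median of all genes was -0.07. With the JAK3 inhibitor 0 of 30 genes and 0% of all genes passed (limma). An unadjusted p under 0.05 was found in 2 of the 30 genes, Paics (-0.43) and Shmt1 (-0.33), and in 8.68% of all genes. The outermost 95% bounds were -1.10 and 1.15 with the JAK1 inhibitor and -0.84 and 0.82 with the JAK3 inhibitor. Without replicate 2 of the JAK3 inhibitor, 1 gene passed.

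The slope of log2 intensity per 4-fold step of dose summed up the dose courses. The outer JAK1 inhibitor doses, 0.0625 and 4 µM, weigh most in its slope. They hold 1 sample each, both in the low-intensity set, and these samples were never left out. The samples at 4 µM of the JAK3 inhibitor lie in that set too. The part of the set in either slope was not tested. The JAK3 inhibitor doses start at 0.25 µM. The slope is thus not a like measure for both inhibitors. With the JAK1 inhibitor it was negative past the threshold in 3 genes, Srm at -0.60 ± 0.10, Psat1 at -0.35 ± 0.09 and Shmt1 at -0.28 ± 0.07 (limma adjusted p = 0.00164, 0.0455 and 0.0415), against 1.96% of all genes. Without replicate 1 at 0.25 µM, or without replicate 1 at 1 µM, 1 gene was called, and without replicate 2 at 0.25 µM, 2 were. With the JAK3 inhibitor 0 of 30 genes passed (limma), against 0.137% of all genes with a negative slope. The lowest slope was -0.27. An unadjusted p under 0.05 was found in 3 of the 30 genes and in 8.97% of all genes. Without replicate 2 at 4 µM of the JAK3 inhibitor, 1 gene was called.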

How the data were processed

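RNA from 19 preparations of mouse splenic NK cells was measured on Affymetrix gene arrays. The deposited values are linear intensities per probe set, made by the authors with Affymetrix Power Tools and RMA, per the submitters' processing notes; versions are not given in the sources used here. Precision is limited by how many arrays each group has. Of 24922 probe sets, the platform annotation gave 21425 exactly 1 symbol and 1399 several symbols, and it did not list 2098; the brightest probe set on average stood for each of 19752 genes.

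Intensities were taken to log2. Because the samples lie on 2 scales, divided at a log2 median of 6.5, a set term entered the fit beside the 9 group means (limma 3.58.1 in R 4.3.3, lmFit and eBayes with a trend, 9 residual degrees of freedom), with Benjamini-Hochberg adjustment over all genes and a threshold of 0.05. Printed log2 values have the set term subtracted for the high-intensity set. In that set 20.0% of probe sets held the same value in at least 3 samples, against 0% in the low-intensity set. Whether the set term brings both sets to a common scale was not tested. The procedure was tested on simulated data. Tables and figures used Python 3.11.15, numpy 2.4.6, pandas 2.3.3 and matplotlib 3.10.9.

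Values in every sample were printed for the 12 genes with the smallest p for IL-2 against untreated cells, for any gene that fell there and for genes that differed past the threshold between the inhibitors; up to 3 genes were named per further list. The genes, lists and marker genes were chosen with earlier results of these data known. Alternatives were quantile normalization within sets, the low-intensity set alone, the compared groups alone, dim genes left out, the mean of probe sets, the replicate number as a block and leaving out each sample. The other Odc1 probe set was added after the data were seen.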

Additional observations from a re-analysis of the deposited data

Results flagged for a closer look

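In the IL-2 group of 4 samples, 1 sample stood apart from the other 3 in 3 of the 30 genes; chance gives such a gap in about 1 of 20 groups. Prps1 was lowest in IL-2 replicate 1, at a log2 value of 7.02, where the others lay at 7.68 to 7.79. Pnp was lowest in the same replicate, at 6.33, where the others lay at 7.05 to 7.10. Pfas was highest in IL-2 replicate 4, at 7.65, where the others lay at 7.39 to 7.40.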

How the results depend on the processing

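For IL-2 against untreated cells, 14 of 21 calls held under every alternative run, with 15 to 23 genes called. At the rising JAK3 inhibitor doses 2 of 13, 4 of 20 and 2 of 18 calls held in this way. At 0.25 and 1 µM of the JAK1 inhibitor 0 of 8 and 1 of 10 did. Calls lost under 7 of 12 alternatives included Mthfd1l at 0.25 and 1 µM of the JAK1 inhibitor. They also included Phgdh at 0.25 and 1 µM, and Umps and Hprt at 0.25 µM, of the JAK3 inhibitor. No call under any alternative had the opposite sign. Quantile normalization, leaving out dim genes and averaging probe sets kept all 108 calls over all comparisons, the low-intensity set alone lost 65, the compared groups alone 5 and the replicate block 58. With quantile normalization the counts were 22 for the JAK3 inhibitor at 0.25 µM (13 as reported), 14 and 21 for the JAK1 inhibitor at 0.25 and 1 µM (8 and 10), 2 for JAK1 against JAK3 inhibitor at 0.25 µM (1) and 10 for the JAK1 inhibitor slope (3). In the low-intensity set alone they were 2 and 4 for the JAK3 inhibitor at 0.25 and 1 µM, 0, 2 and 7 for the JAK1 inhibitor at 0.25, 1 and 4 µM, 0 for the inhibitor difference at 0.25 µM and 0 for the JAK1 inhibitor slope; that set holds 12 samples. Fits of the compared groups alone gave 22 for the JAK3 inhibitor at 0.25 µM, 19, 21 and 20 for the JAK1 inhibitor at 0.25, 1 and 4 µM, 5 for the difference and 14 for the slope. With the replicate number as a block, counts were 6, 9 and 2 for the JAK3 inhibitor doses, 0, 1, 5 and 5 for the JAK1 inhibitor doses and 14 for the JAK1 inhibitor slope. The block turned the median log2 change of the 30 genes at 0.0625 µM of the JAK1 inhibitor to 0.39 (-0.29 as reported), and gave -0.27, -0.30 and -0.54 at its higher doses (-0.52, -0.52 and -0.83) and -0.32, -0.47 and -0.39 at the JAK3 inhibitor doses (-0.60, -0.67 and -0.79). The samples share only a number: 16 of 38 same-numbered pairs had a correlation of deviations over 0.1 (-0.54 to 0.70). The cause of these shifts was not tested. Calls among all 19752 genes shifted too. At 0.25 µM of the JAK3 inhibitor they numbered 987 as reported. There were 1755 with quantile normalization, 2258 in the compared groups alone and 726 with the block. At 0.25 µM of the JAK1 inhibitor there were 445 as reported, and 1171, 1770 and 134 under these alternatives. At 4 µM of the JAK3 inhibitor there were 1483 as reported and 638 in the low-intensity set alone. Leaving out 1 sample gave 19 to 23 genes for IL-2, 5 to 15, 5 to 21 and 12 to 19 for the JAK3 inhibitor doses, 0 to 1, 0 to 15, 3 to 15 and 7 to 16 for the JAK1 inhibitor doses, 0 for the inhibitor differences at 0.25, 1 and 4 µM, 0 to 1 for 4 µM of the JAK3 inhibitor and 0 for 4 µM of the JAK1 inhibitor against untreated cells, 0 to 1 for the JAK3 inhibitor slope and 1 to 3 for the JAK1 inhibitor slope. Where a group kept 1 sample, it was assumed to vary like the others. Among all called genes, the share that was higher was 71.7% for IL-2 and 53.9% with quantile normalization; it was 40.1% and 51.1% for the JAK3 inhibitor at 4 µM, 32.4% and 45.3% and 30.2% and 47.9% for the JAK1 inhibitor at 0.25 and 4 µM, and 29.3% and 49.5% for the JAK1 inhibitor slope.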
